A study of Mus musculus with 24 samples.

Results

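The transcriptome of tolerized and restimulated bone marrow-derived macrophages (BMDMs) was compared between *Irg1-/-* and WT mice. The members are the 6 libraries labelled LPS 24h->LPS 3h, 3 from each genotype, out of 24 libraries in the series, and they were chosen by treatment label alone. Cells of both genotypes were grown for 7 days with 20 ng/ml M-CSF from the bone marrow of mice aged 8 to 20 weeks. They received 100 ng/ml LPS for 24 h, fresh medium and 1 h of rest, and LPS again for 3 h. The study's methods give *Irg1-/-* mice on a C57BL/6N background, and WT controls of that strain bought from a supplier. The other groups, of 6 libraries each, were harvested directly after LPS 24h, after LPS 3h without a first dose, or unstimulated. Nothing in the labels says whether the 3 libraries of a group came from separate animals. The p-values measure the spread between libraries, estimated over all 24, and may not measure that between animals.

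LPS binds TLR4 on macrophages and starts a first wave of inflammatory transcription, part of which is carried by secreted interferon-β acting back on the cells through its receptor. Cells that met LPS earlier respond to a further dose with a reshaped program, known as endotoxin tolerance, in which many cytokine genes respond weakly. *Acod1* (also called *Irg1*) encodes the enzyme that makes itaconate from an intermediate of the TCA cycle, a metabolite that accumulates during a long LPS exposure.

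Sequencing covered the 3′ ends of polyadenylated transcripts, and 8883460 to 13805923 reads per library were counted on genes in WT and 13116142 to 13734954 in *Irg1-/-*. Values are given as CPM (gene reads scaled to a common library total) normalized with edgeR's TMM factors, and fold changes as log2 (*Irg1-/-* minus WT) from a fit to all 24 libraries. Macrophage markers summed to between 7018 and 8972 CPM in WT and between 6975 and 8757 in *Irg1-/-*. Of these 10 markers 0 passed the threshold, against 0.118% of all genes tested. The 10 neutrophil markers summed to 129 to 174 and 134 to 203 CPM, with *Ly6g* and *Mpo* at 0 in all 6 libraries, and the fibroblast markers to 135 to 175 and 103 to 159 CPM. The genotypes were not spread evenly over the 4 numbered prefixes that the labels put before each library's barcode, and what the prefix stands for is not given in the sources used here. Prefix 1 held 1 WT and 2 *Irg1-/-* libraries, prefix 2 held 1 of each, and prefix 4 held WT replicate 3 alone. Differences within prefixes 1 and 2 are therefore given beside the main results. Mitochondrial transcripts took 1.99% to 2.50% of the gene reads in WT and 1.64% to 1.84% in *Irg1-/-*, so that the groups did not overlap. That gap came with *mt-Co1*, which took 0.722% to 1.62% in WT and 0.459% to 0.559% in *Irg1-/-*. The other mitochondrial transcripts took 0.702% to 1.28% and 1.11% to 1.34%, which overlap, and *mt-Nd5* was higher in *Irg1-/-* without overlap (mean 253 and 555 CPM, adjusted p = 0.463). Their part in the results was not tested.

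*Acod1* (ENSMUSG00000022126.6, chromosome 14, 103046977 to 103056573, plus strand, GRCm38), the targeted gene, was at 11389, 10381 and 16122 CPM in WT replicates 1 to 3. In *Irg1-/-* it was at 16.7, 11.2 and 14.1 CPM, so every library matched its genotype label. The log2 fold change was −9.82 (SE, the standard error, 0.66, adjusted p = 1.33e-11). This and the other adjusted p-values come from the quasi-likelihood test in edgeR, adjusted over all genes by the Benjamini-Hochberg method.

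Of 11878 genes tested, 14 (0.118%) passed the threshold of an adjusted p of 0.05. *Acod1* and 10 other genes were lower in *Irg1-/-* (11 genes, 0.0926%) and 3 were higher (0.0253%). At an unadjusted p of 0.05, 936 genes passed (7.88%), 424 of them higher and 512 lower. Over all genes tested, the median log2 fold change was −0.03 and 52.1% of the values were below 0. Beside *Acod1*, the genes that fell were *Oasl1*, *Rsad2* and *Cmpk2* of the interferon-stimulated list, *Gbp2* of the GBP and IRG GTPases, the chemokine genes *Cxcl10* and *Cxcl11*, the tripartite-motif gene *Trim30c*, the cytokine receptor gene *Il7r*, the activin subunit gene *Inhba* and the potassium channel gene *Kcnj2*. The coagulation factor gene *F13a1*, the phosphatase gene *Dusp16* and *Spag7* rose. In 13 of the 14 genes no *Irg1-/-* library overlapped a WT library, against 6.45% of all genes with no overlap and higher values, and 6.42% with no overlap and lower values. *Kcnj2* was the exception.

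**Figure D1:**
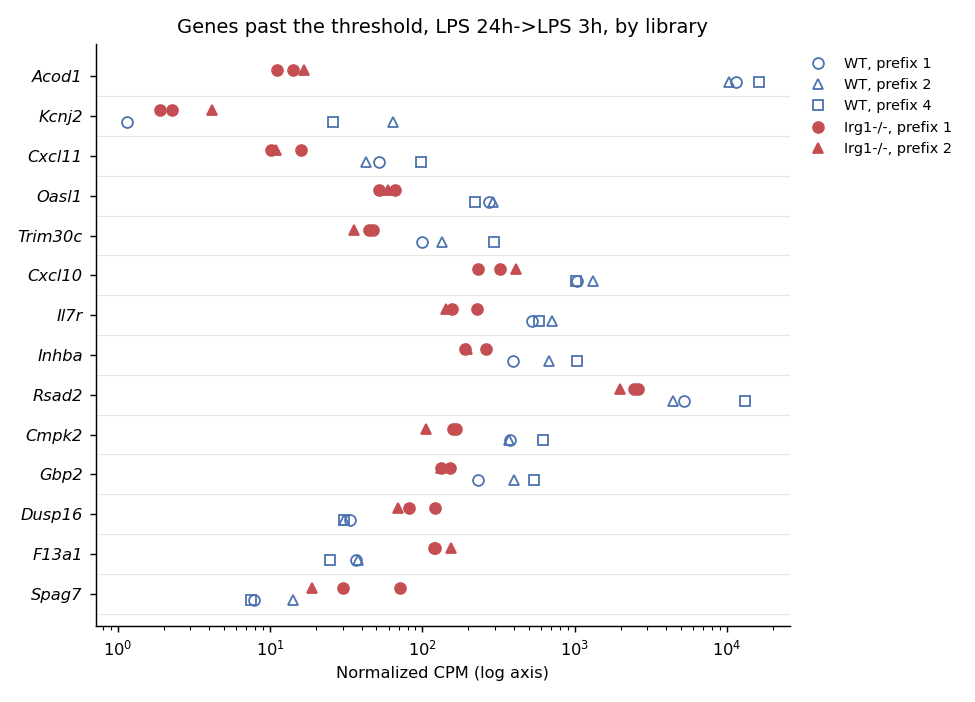
Normalized CPM (log axis) of the 14 genes past the threshold in each of the 6 LPS 24h->LPS 3h libraries; open blue symbols are WT, filled red symbols *Irg1-/-*, and the shape gives the library prefix. The groups are apart for 13 genes, whereas for *Kcnj2* the WT library of prefix 1, at 1.15 CPM, lies below all 3 *Irg1-/-* libraries.

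The number of calls depended on single libraries. It was 30 without WT replicate 1, 10 without WT replicate 2 and 6 without WT replicate 3, and 6, 4 and 7 without *Irg1-/-* replicates 1, 2 and 3. *Acod1*, *F13a1*, *Oasl1* and *Trim30c* passed in all 6 of these fits. With the library prefix as a term, 6 genes passed, all of them among the 14. In the 5 libraries of prefixes 1 and 2 alone, with prefix as a term, 80 genes passed, of which 9 were among the 14.

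**Figure D2:**
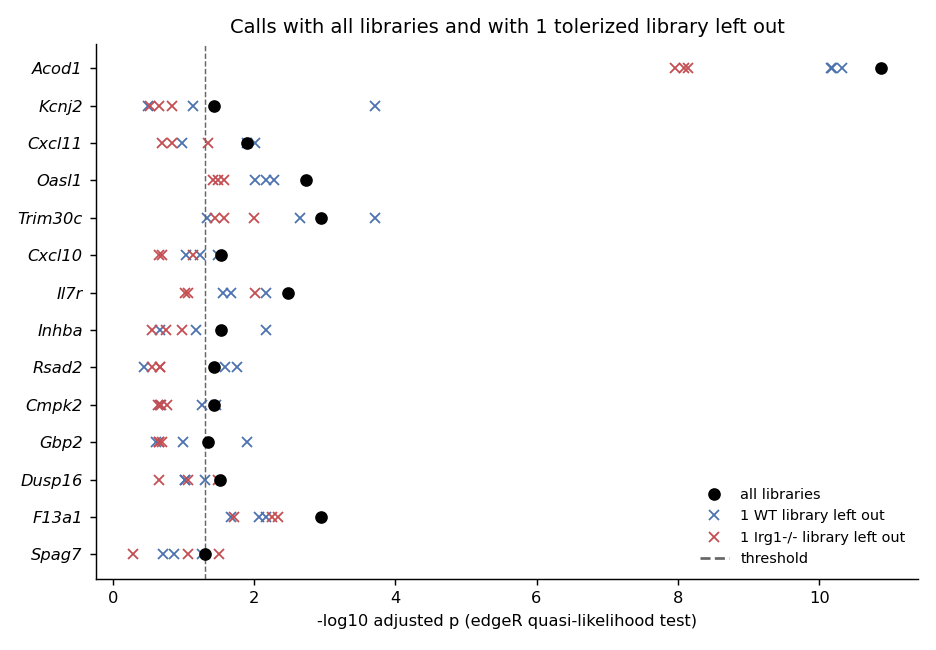
Minus log10 adjusted p of the 14 genes with all libraries (black points) and with 1 tolerized library left out (crosses, blue for a WT and red for an *Irg1-/-* library); the dashed line is the threshold. All crosses of *Acod1*, *F13a1*, *Oasl1* and *Trim30c* lie beyond the line, and only 1 cross does for *Cxcl10*, *Inhba*, *Kcnj2*, *Cmpk2*, *Gbp2* and *Spag7*.

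*Oasl1* (chromosome 5, 114923240 to 114937915, plus strand), which encodes an oligoadenylate synthetase-like protein that limits translation of *Irf7*, was at 275, 291 and 222 CPM in WT. The *Irg1-/-* libraries were at 59.7, 66.6 and 51.9 CPM, all of them far under the lowest WT library. It fell by 2.15 on the log2 scale (SE 0.34, adjusted p = 0.00186), and the difference was −2.23 within prefix 1 and −2.28 within prefix 2. In WT cells *Oasl1* had 0.86 ± 0.68 CPM (SD, n = 3) unstimulated, 599 ± 84.8 after LPS 3h and 103 ± 41.3 after LPS 24h. In *Irg1-/-* cells the last of these was 49.8 ± 6.34 CPM, close to the 59.4 ± 7.36 after restimulation. The genotype effect after restimulation minus that after LPS 24h was −1.11 and did not pass (adjusted p = 0.482, edgeR's quasi-likelihood test).

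*Rsad2* encodes viperin, a radical SAM enzyme with antiviral activity, and *Cmpk2*, its neighbour, encodes a mitochondrial nucleotide kinase. The genes lie 12751 bases apart on chromosome 12 (*Rsad2* 26442746 to 26456452, minus strand; *Cmpk2* 26469204 to 26479837, plus strand). *Rsad2* was at 5198, 4411 and 13132 CPM in WT and at 1997, 2437 and 2624 CPM in *Irg1-/-*, with WT replicate 3 far above the rest. Its log2 fold change was −1.69 (SE 0.35, adjusted p = 0.0373), and −1.04 and −1.14 within prefixes 1 and 2. Without WT replicate 3 the value was −0.99 (adjusted p = 0.361), and it also lost its call without *Irg1-/-* replicate 1, 2 or 3 (adjusted p = 0.215, 0.280 and 0.214). *Cmpk2* was at 374, 373 and 622 CPM in WT and at 105, 159 and 167 in *Irg1-/-*. It had a log2 fold change of −1.67 (SE 0.35, adjusted p = 0.0373), and −1.20 and −1.83 within prefixes 1 and 2. Its call was lost without any library except WT replicate 1, with adjusted p-values up to 0.225.

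The chemokine gene *Cxcl10* encodes a ligand of CXCR3, and *Cxcl11* is a related chemokine gene. They lie 10654 bases apart on chromosome 5. *Cxcl10* (92346638 to 92348889, minus strand) was at 1029, 1316 and 1014 CPM in WT and at 412, 323 and 232 CPM in *Irg1-/-*. It had a log2 fold change of −1.80 (SE 0.35, adjusted p = 0.0295), and −1.91 and −1.67 within prefixes 1 and 2. Its call held without WT replicate 1 (adjusted p = 0.0319) and was lost without each of the other 5 libraries (adjusted p up to 0.217). *Cxcl11* (92359544 to 92365485, minus strand) was at 52.2, 42.7 and 98.4 CPM in WT and at 10.9, 10.2 and 16.0 CPM in *Irg1-/-*. The log2 fold change was −2.38 (SE 0.44, adjusted p = 0.0126), and −2.02 and −1.96 within prefixes 1 and 2. It lost its call without WT replicate 3 (adjusted p = 0.104) and without *Irg1-/-* replicates 1 and 2 (adjusted p = 0.143 and 0.197). The annotation lists *Cxcl11* as a polymorphic pseudogene, so its RNA need not give a working protein in these cells. *Art3* overlaps both genes on the other strand. The strand setting of the counting is not given in the sources used here, so reads of *Art3* cannot be told apart from theirs. *Cxcl9*, another CXCR3 ligand gene, was at 117, 182 and 254 CPM in WT and 155, 189 and 185 in *Irg1-/-* (log2 fold change −0.07, adjusted p = 0.995).

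*Gbp2* (chromosome 3, 142620602 to 142638008, plus strand) encodes a guanylate-binding protein that acts on the membranes of intracellular microbes. It was at 234, 400 and 541 CPM in WT and at 132, 153 and 133 CPM in *Irg1-/-*, with a log2 fold change of −1.49 (SE 0.32, adjusted p = 0.0453), and −0.71 and −1.60 within prefixes 1 and 2. Its call held without WT replicate 1 (adjusted p = 0.0125) and was lost without each of the other libraries (adjusted p up to 0.245). *Trim30c* (chromosome 7, 104382065 to 104400837, minus strand) belongs to a cluster of tripartite-motif genes that LPS and interferon induce. It was at 100, 134 and 294 CPM in WT and at 35.7, 44.96 and 47.4 in *Irg1-/-*. The log2 fold change of *Trim30c* was −2.04 (SE 0.31, adjusted p = 0.00113), and −1.11 and −1.90 within prefixes 1 and 2. Without WT replicate 3, its highest library, *Trim30c* had −1.42 (adjusted p = 0.0465). Its paralogs *Trim30a*, *Trim30b* and *Trim30d* did not pass (log2 fold change −0.68, −1.06 and −0.98, adjusted p = 0.459, 0.440 and 0.219). All 3 were lower without overlap between groups, where 6.42% of all genes tested were. Since paralogs can share reads, the split among them is uncertain.

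The promoters of 4 interferon-induced genes that fell are shown. The windows of *Cxcl10*, *Rsad2* and *Gbp2* hold a stretch that matches a DNA element through which interferon is known to act. They are the only windows of genes that fell with such a match, and *Oasl1* is shown without one. The element, the interferon-stimulated response element (ISRE), was searched on both strands as GAAA, any 2 bases and GAAA, and capitals mark a match. The windows run 5′ to 3′ on the gene's strand, from 250 bases before to 50 bases after the start (RefSeq, GRCm38.p6): *Cxcl10* chr5:92348840-92349139 (minus), *Rsad2* chr12:26456403-26456702 (minus), *Gbp2* chr3:142620413-142620712 (plus) and *Oasl1* chr5:114922990-114923289 (plus).
Cxcl10: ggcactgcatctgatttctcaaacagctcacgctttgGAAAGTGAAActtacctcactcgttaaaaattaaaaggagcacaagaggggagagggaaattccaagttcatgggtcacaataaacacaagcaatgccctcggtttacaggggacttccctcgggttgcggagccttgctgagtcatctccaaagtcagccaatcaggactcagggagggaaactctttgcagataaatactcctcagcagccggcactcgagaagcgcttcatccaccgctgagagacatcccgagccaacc
Rsad2: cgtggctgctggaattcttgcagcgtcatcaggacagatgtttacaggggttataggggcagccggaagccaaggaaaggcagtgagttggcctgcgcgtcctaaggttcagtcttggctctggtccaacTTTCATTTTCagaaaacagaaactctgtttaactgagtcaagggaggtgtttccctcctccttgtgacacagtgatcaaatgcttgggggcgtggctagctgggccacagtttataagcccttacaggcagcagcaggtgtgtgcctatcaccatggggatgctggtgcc
Gbp2: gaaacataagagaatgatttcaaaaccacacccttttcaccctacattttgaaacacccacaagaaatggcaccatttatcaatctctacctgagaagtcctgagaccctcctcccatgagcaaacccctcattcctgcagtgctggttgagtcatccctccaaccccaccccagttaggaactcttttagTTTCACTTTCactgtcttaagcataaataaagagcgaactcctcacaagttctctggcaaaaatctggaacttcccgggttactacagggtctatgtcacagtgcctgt
Oasl1: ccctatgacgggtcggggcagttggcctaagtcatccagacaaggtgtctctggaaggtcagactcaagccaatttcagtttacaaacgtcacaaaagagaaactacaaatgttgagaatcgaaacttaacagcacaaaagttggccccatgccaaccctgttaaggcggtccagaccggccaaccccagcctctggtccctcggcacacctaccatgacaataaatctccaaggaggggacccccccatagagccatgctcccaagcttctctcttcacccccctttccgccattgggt

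The match began 213 bases before the start in *Cxcl10*, 120 bases before it in *Rsad2* and 59 bases before it in *Gbp2*, and these letters are not in the *Oasl1* window. A window was found for 10 of the 11 genes that fell, the targeted *Acod1* included, and 3 of the 10 held a match, as did 0 of the 3 genes that rose. Matches were present for 3.99% of the 27025 genes with a window and 4.08% of the 9360 of them that were tested. They were present for 14 of 23 genes of the interferon-stimulated list and for 8 of 9 genes of the list of GBP and IRG GTPases. A second element (GAS), searched as TTC, any 3 bases and GAA, was found for 2 of the 10 genes that fell and 8.21% of the tested genes. A match describes the letters of these windows and shows no binding.

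The interferon-stimulated list held 32 tested genes, of which *Oasl1*, *Rsad2* and *Cmpk2* fell, 29 did not pass and 0 rose. In all, 30 values were below 0, the median log2 fold change was −0.54, and 13 genes were lower without overlap between groups. Over all genes tested, 52.1% were below 0, 6.42% were lower without overlap and 0.0926% fell. Within prefixes 1 and 2 the median was −0.56 and −0.63. *Ifi44* was at 374, 355 and 591 CPM in WT and at 131, 170 and 184 in *Irg1-/-* but missed the threshold (log2 fold change −1.44, adjusted p = 0.0599). *Ifit1*, which binds viral RNA, was at 1468, 1369 and 2143 CPM in WT and at 1475, 881 and 1079 CPM in *Irg1-/-*, and the groups overlapped (log2 fold change −0.54, adjusted p = 0.818). *Isg15*, a ubiquitin-like modifier, had a log2 fold change of −0.32 (adjusted p = 0.898). *Xaf1* had the highest value of the list, 0.51 (adjusted p = 0.872). In bulk libraries fewer cells that express a gene and less RNA per cell cannot be told apart.

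Of the GBP and IRG GTPases, which target vacuoles that hold microbes, 14 were tested. *Gbp2* fell, 13 did not pass, all 14 values were below 0 and 9 genes were lower without overlap, where 6.42% of all genes tested were lower without overlap and 0.0926% fell. The median was −1.29, and −0.73 and −1.29 within prefixes 1 and 2. *Iigp1* was at 111, 60.0 and 251 CPM in WT and at 39.0, 45.03 and 46.2 CPM in *Irg1-/-* (log2 fold change −1.70, adjusted p = 0.0599). *Gbp7* was at 206, 184 and 292 CPM in WT and at 94.9, 118 and 129 in *Irg1-/-* (−0.997, adjusted p = 0.145). *Gbp5* overlapped between groups, with WT at 35.5, 43.8 and 228 CPM and *Irg1-/-* at 23.6, 51.2 and 107 CPM. WT replicate 3 held the highest value of *Gbp2*, *Gbp3*, *Gbp5*, *Gbp7*, *Gbp9* and *Iigp1*. Without it *Gbp2* had a log2 fold change of −1.15 (adjusted p = 0.245), and 0 genes of the list passed. The same count was found without *Irg1-/-* replicate 1, 2 or 3, whereas 3 passed without WT replicate 1 and 1 without WT replicate 2. It was 5 with DESeq2's Wald test or with no filter on low counts.

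The genes given next, for parts of the interferon pathway upstream of these targets, did not pass the test after restimulation. Among them *Stat2*, *Irf9*, *Irf7* and *Usp18* are also members of the interferon-stimulated list and are counted there, so the sets are not separate. *Ifnb1*, the interferon-β gene, was at 0.231, 2.14 and 3.39 CPM in WT and at 1.61, 0.218 and 0.228 in *Irg1-/-* (log2 fold change −1.50, adjusted p = 0.751). *Ifna2* and *Ifna4* were at 0 in all 6 libraries. The receptor genes *Ifngr1* and *Ifngr2* had log2 fold changes of −0.21 and 1.33 (adjusted p = 0.980 and 0.557). The receptor genes *Ifnar1* and *Ifnar2* had log2 fold changes of 0.43 and 0.50 (adjusted p = 0.775 and 0.709), and the kinase gene *Jak1* had 0.04 (adjusted p = 0.995). *Stat2*, *Irf9*, *Irf7* and *Irf1* had log2 fold changes of −0.32, −0.54, −0.44 and −0.59 (lowest adjusted p = 0.625). After LPS 24h *Irf1* was past the threshold (−1.25, adjusted p = 0.0314), and *Stat2*, *Irf9* and *Irf7* were not. *Usp18*, which restrains the receptor, was at 180, 121 and 98.7 CPM in WT and at 138, 144 and 118 CPM in *Irg1-/-* (log2 fold change 0.00, adjusted p = 1.00).

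**Figure D3:**
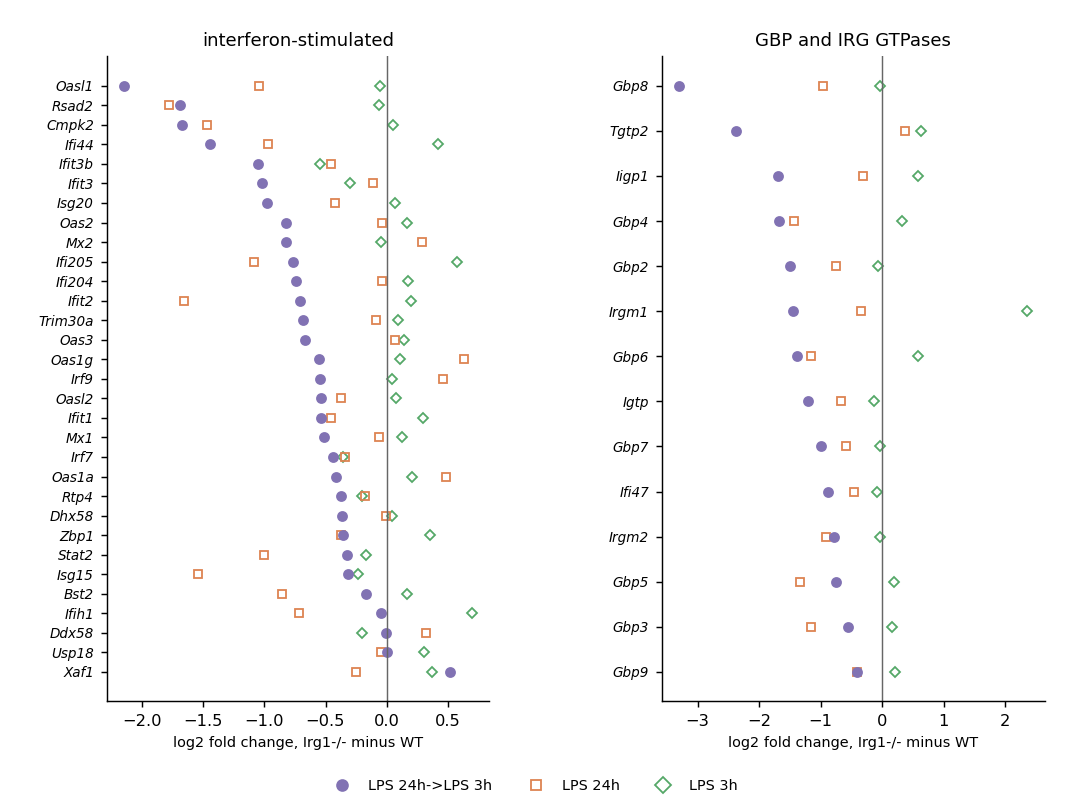
Log2 fold change (*Irg1-/-* minus WT) of each tested gene of the interferon-stimulated list (left, 31 of the 32 genes) and of the GBP and IRG GTPases (right, 14 genes) after LPS 24h->LPS 3h (filled circles), LPS 24h (squares) and LPS 3h (diamonds). After restimulation 29 and 14 of the plotted values lie below 0. The medians over the 32 and 14 genes are −0.54 and −1.29, after LPS 24h −0.36 and −0.71, and after LPS 3h 0.09 and 0.18.

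Outside these lists, *F13a1* (chromosome 13, 36867178 to 37050244, minus strand), the A subunit of coagulation factor XIII and a gene of alternatively activated macrophages, was at 36.7, 37.8 and 25.0 CPM in WT. All *Irg1-/-* libraries lay well above, at 154, 122 and 119 CPM. It rose by 1.99 on the log2 scale (SE 0.30, adjusted p = 0.00113), and by 1.71 and 2.02 within prefixes 1 and 2. Among 17 tested genes of alternative activation it was the only one past the threshold, where 0.0253% of all genes tested rose. The other 16, *Arg1* and *Stab1* included, did not pass. *Arg1*, arginase 1, was at 2176, 2122 and 1437 CPM in WT and at 1854, 2221 and 1734 in *Irg1-/-* (log2 fold change 0.02, adjusted p = 1.00).

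*Il7r* (chromosome 15, 9505788 to 9530176, minus strand), the α chain of the interleukin-7 receptor, was at 525, 708 and 579 CPM in WT and at 143, 158 and 229 CPM in *Irg1-/-*. It had a log2 fold change of −1.77 (SE 0.30, adjusted p = 0.00328), and −1.46 and −2.30 within prefixes 1 and 2. Its call was lost without *Irg1-/-* replicate 1 or 2 (adjusted p = 0.0949 and 0.0859). The partner chains *Il2rg* and *Crlf2* did not pass (log2 fold change −0.54 and −0.20, adjusted p = 0.787 and 0.980). *Inhba* (chromosome 13, 16011851 to 16031621, plus strand), the βA subunit of activin and inhibin, was at 392, 674 and 1041 CPM in WT and at 197, 189 and 260 in *Irg1-/-*. The log2 fold change was −1.71 (SE 0.34, adjusted p = 0.0295), and −0.82 and −1.77 within prefixes 1 and 2. It passed without WT replicate 1 (adjusted p = 0.00682) and failed without each of the other 5 libraries (adjusted p up to 0.280). The activin receptor genes *Acvr1b*, *Acvr2a* and *Acvr2b* did not pass (log2 fold change −0.95, 0.46 and −0.13, lowest adjusted p = 0.701).

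*Dusp16* (chromosome 6, 134715468 to 134792625, minus strand), a phosphatase of the stress kinases JNK and p38, was at 33.3, 30.6 and 30.7 CPM in WT and at 69.0, 81.7 and 122 CPM in *Irg1-/-*. It had a log2 fold change of 1.53 (SE 0.31, adjusted p = 0.0304), and 1.58 and 1.17 within prefixes 1 and 2. The call was lost without WT replicate 2 or 3 (adjusted p = 0.0959 and 0.0953) and without *Irg1-/-* replicate 2 or 3 (adjusted p = 0.0859 and 0.217). It was 1 of 27 tested feedback inhibitors of LPS signalling, and the other 26 did not pass, where 0.118% of all genes tested passed. *Irak3*, an inhibitory kinase of the receptor pathway, averaged 257 CPM in WT and 530 in *Irg1-/-* without overlap (log2 fold change 1.05, adjusted p = 0.406), and *Nfkbia*, the inhibitor of NF-κB, averaged 5489 and 6330 CPM (0.21, adjusted p = 0.953).

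*Spag7* (chromosome 11, 70663771 to 70669416, minus strand) was at 7.84, 14.2 and 7.51 CPM in WT and at 18.9, 30.3 and 71.3 CPM in *Irg1-/-*. The difference was 2.03 (SE 0.43, adjusted p = 0.0492), with 2.54 within prefix 1 and 0.41 within prefix 2, and without *Irg1-/-* replicate 3 it was 1.33 (adjusted p = 0.515). Its call held without *Irg1-/-* replicate 1 and was lost without each of the other libraries. *Kcnj2* (chromosome 11, 111066164 to 111076821, plus strand), an inward-rectifier potassium channel gene, was at 1.15, 64.4 and 25.8 CPM in WT and at 4.16, 1.89 and 2.28 in *Irg1-/-*. The fitted log2 fold change was −3.45 (SE 0.71, adjusted p = 0.0373), but the difference was 0.76 within prefix 1 and −3.90 within prefix 2. An exact permutation test of the 3 libraries against 3 gave p = 0.4 (two-sided), where 0.1 is the smallest p possible. Its call held without WT replicate 1 (adjusted p = 1.96e-04) and was lost without each of the other libraries (log2 fold change −2.29, adjusted p = 0.314, without WT replicate 2).

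The remaining lists held no gene past the threshold, which 0.118% of all genes tested passed, and 5 lists held at least 1. Among 25 inflammatory cytokine genes the median log2 fold change was 0.15, with 14 values above 0 and 11 below. *Il1b* was at 1738, 2110 and 1316 CPM in WT and at 2561, 2754 and 2194 CPM in *Irg1-/-*. It was higher without overlap and not past the threshold (0.54, adjusted p = 0.711). *Il6* was at 11.1, 21.4 and 59.8 CPM in WT and at 43.4, 21.9 and 37.3 CPM in *Irg1-/-* (0.15, adjusted p = 0.992). *Il19*, a cytokine of the interleukin-10 family, was at 0.922, 1.17 and 0 CPM in WT and at 7.16, 3.19 and 3.57 CPM in *Irg1-/-*, and was not past the threshold (adjusted p = 0.105). The 20 genes of the inflammasome and pyroptosis had a median of 0.04, and *Nlrp3*, the sensor, was at 317, 356 and 393 CPM in WT and at 481, 454 and 385 CPM in *Irg1-/-* (0.31, adjusted p = 0.954). *Casp1* had a log2 fold change of 0.38 (adjusted p = 0.904) and *Gsdmd*, which forms the pore of pyroptosis, −0.32 (adjusted p = 0.899). Among the other chemokines, *Ccl5* was at 6251, 7362 and 2933 CPM in WT and at 3767, 4334 and 3217 CPM in *Irg1-/-* (−0.55, adjusted p = 0.831). The 22 chemokine genes, *Cxcl10* and *Cxcl11* included, had a median of −0.45. Of them 18 were below 0, where 52.1% of all genes tested were.

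Of the metabolic and stress lists, the 24 NRF2 targets had a median of −0.29 and the 24 genes of the integrated stress response −0.29. *Txnrd1*, thioredoxin reductase 1, was at 561, 374 and 420 CPM in WT and at 944, 819 and 1069 in *Irg1-/-* without overlap (log2 fold change 1.06, adjusted p = 0.228). *Hmox1*, heme oxygenase 1, was at 117, 285 and 109 CPM in WT and at 276, 179 and 142 in *Irg1-/-* (0.23, adjusted p = 0.968). The 26 genes of the TCA cycle and itaconate handling had a median of −0.27, the 23 glycolytic genes and HIF1A targets −0.35 and the 21 genes of cholesterol synthesis 0.10. *Nos2*, inducible nitric oxide synthase, was at 210, 65.3 and 72.4 CPM in WT and at 58.9, 83.0 and 64.5 in *Irg1-/-* (−0.75, adjusted p = 0.766). *Tlr4*, the LPS receptor, was at 27.2, 23 and 36.9 CPM in WT and at 11.9, 10.2 and 15.4 in *Irg1-/-*, again without overlap and not past the threshold (−1.21, adjusted p = 0.242).

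**Figure D4:**
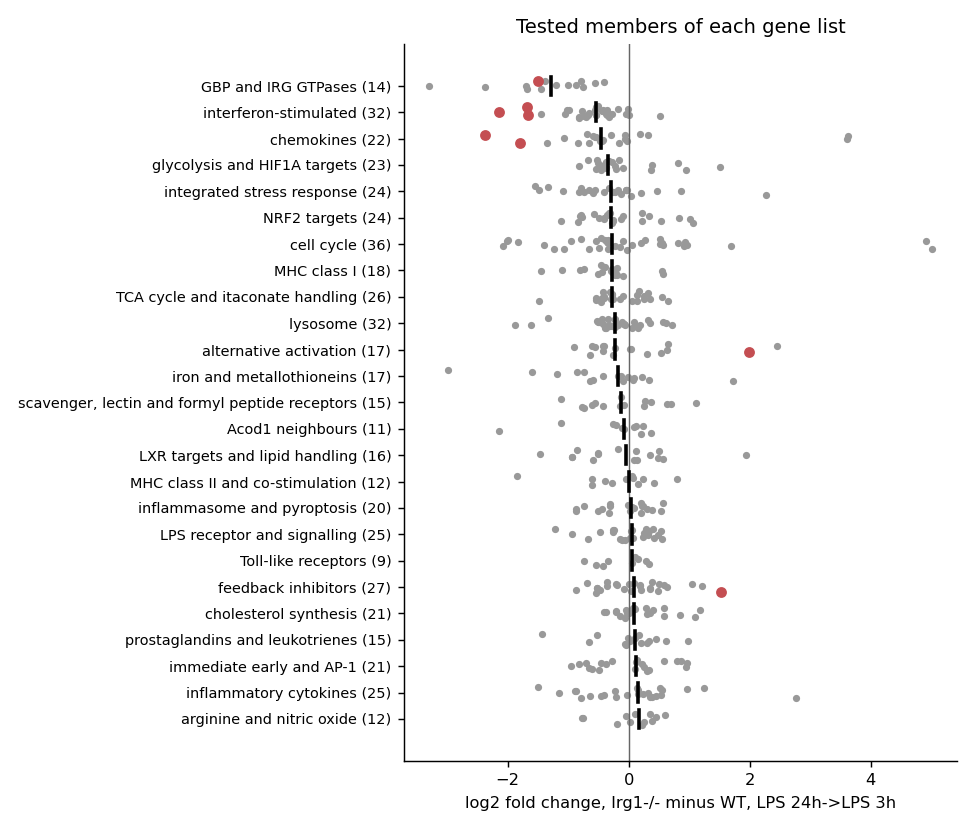
Log2 fold change (*Irg1-/-* minus WT, LPS 24h->LPS 3h) of every tested gene of each list, with the number tested in parentheses; red points are genes past the threshold and black bars list medians. The GBP and IRG GTPases (median −1.29) and the interferon-stimulated genes (−0.54) lie lowest, and red points occur in 5 lists.

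To see whether the genotype difference was tied to restimulation, the same comparison was set beside LPS 24h and LPS 3h, and the difference between treatments was tested. After LPS 24h, 71 genes passed (0.598% of those tested), among them 7 of the 14: *Acod1*, *F13a1*, *Il7r*, *Cxcl10*, *Cxcl11*, *Rsad2* and *Cmpk2*, each with the sign seen after restimulation. After LPS 3h only *Acod1* passed (0.00842%). The prefixes were less balanced there: all 3 *Irg1-/-* libraries of LPS 24h had prefix 1 and the WT libraries prefixes 1, 2 and 4, and at LPS 3h *Irg1-/-* had prefixes 2, 3 and 3 and WT prefixes 1, 2 and 4. With the prefix as a term, chosen after seeing the data, 12 genes passed after LPS 24h, among them 4 of the 14 (*Acod1*, *F13a1*, *Il7r* and *Cxcl10*), and 3 after LPS 3h. *Rsad2*, *Cmpk2* and *Cxcl11* then had log2 fold changes of −1.44, −1.35 and −1.84 after LPS 24h (adjusted p = 0.0674, 0.136 and 0.1496). *Cxcl10* had a log2 fold change of −2.54 after LPS 24h (adjusted p = 2.55e-04) and −0.18 after LPS 3h (adjusted p = 1.00), when it averaged 11449 CPM in WT and 10073 in *Irg1-/-*. *Rsad2* had −1.78 after LPS 24h (adjusted p = 0.0116) and −0.06 after LPS 3h. *F13a1* had 2.32 after LPS 24h (adjusted p = 1.09e-04) and 1.35 after LPS 3h (adjusted p = 0.218). *Oasl1* had −1.04 and −0.05 (adjusted p = 0.180 and 1.00).

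The difference between the genotype effects after LPS 24h->LPS 3h and after LPS 3h was past the threshold for 0 genes (0%) by edgeR's quasi-likelihood test, with 859 at an unadjusted p of 0.05 and 34 past the threshold by DESeq2's Wald test. *Trim30c* had the lowest adjusted p of the 14 genes, 0.0668, with a difference of −2.36 (SE 0.43). *Oasl1*, with −2.09, and *Cxcl11*, with −2.70, both had an adjusted p of 0.140. These differences share the restimulated libraries that picked out the 14 genes, so they are descriptions.

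Against LPS 24h, 1 gene had a different genotype effect (0.00842% of those tested). *Plagl2*, a zinc finger transcription factor gene, was at 193, 205 and 276 CPM in WT and 300, 427 and 589 in *Irg1-/-* after restimulation. After LPS 24h it was at 262, 393 and 1080 CPM in WT and at 134, 112 and 183 in *Irg1-/-*. The difference of effects was 2.98 (SE 0.53, adjusted p = 0.0491), and *Plagl2* was not past the threshold after restimulation alone (log2 fold change 0.96, adjusted p = 0.442). The call of *Plagl2* held without WT LPS 24h replicate 1 or 2 or *Irg1-/-* restimulated replicate 1, and was lost without each of the other 9 of the 12 libraries compared. *Dusp16* had a difference of 1.86 (adjusted p = 0.0984): after LPS 24h it averaged 18.0 ± 1.76 CPM in WT and 14.3 ± 0.94 in *Irg1-/-* (SD, n = 3).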

How the data were processed

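Reads from 3′ end sequencing of 24 BMDM libraries were aligned by the authors with STAR to mm10 (per the labels), and the deposited table gives whole-number counts per gene, with no molecular identifiers, not normalized. The counting program, annotation and strand setting are not given in the sources used here. Of the assigned and unassigned reads of the 6 tolerized libraries, 22.1% to 29.6% fell on no gene, 15.1% to 19.9% were not unique and 0.330% to 0.408% were ambiguous, and these lines were left out. Genes were filtered with filterByExpr (11878 of 22165 kept) and tested with edgeR 4.0.16 (TMM factors, quasi-likelihood test, 8 group means over 24 libraries, Benjamini-Hochberg threshold 0.05). Standard errors are the log2 fold change divided by the root of F. Prefix differences are of log2 CPM with a prior count of 2. DESeq2 1.42.0, other filters and scalings, terms for prefix or replicate number, and left-out libraries were alternatives. The procedure was tested on simulated data. There the edgeR test called 10 of 100 genes changed by 1 on the log2 scale and 85 of 100 changed by 2. It also called 4 genes that had not been changed. The changed genes were drawn from well-counted genes and no prefix effect was simulated, so detection in the data may be lower. Genes that did not pass may therefore still differ. No pair of libraries was a duplicate. Coordinates are GRCm38 (GENCODE M21). Named genes were *Acod1*, genes past the threshold whose higher group averaged 10 counts or more (up to 15 each way), and of each list its called members, the 3 highest by mean CPM and the highest and lowest by fold change, with genes of interest by name. Paralogs, pathway partners and genes just outside the threshold were added after their values were seen. The genes, lists and tests were chosen with earlier results of these data known. A member of the interferon-stimulated list is counted in it but not reported here.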

Additional observations from a re-analysis of the deposited data

Results flagged for a closer look

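Several genes had genotype effects of opposite sign after different treatments. Only *Plagl2* passed the test of that difference, in which the effect after LPS 24h was taken from the effect after restimulation (2.98 on the log2 scale, adjusted p = 0.0491, edgeR's quasi-likelihood test).

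For the other genes, every *Irg1-/-* library lay on one side of the WT libraries after restimulation and on the other side after the treatment compared, and the tested difference missed the threshold of the same edgeR fit. Against LPS 24h the difference was 1.86 for *Dusp16* (adjusted p = 0.0984), 3.04 for *Ptgs2*, cyclooxygenase 2 (adjusted p = 0.0569), 1.34 for *Cd40* (adjusted p = 0.422) and 4.67 for *Il19* (adjusted p = 0.227), whose LPS 24h libraries were all under 0.5 CPM. It was −2.79 for *Fabp5*, a fatty acid-binding protein gene (adjusted p = 0.0681), and −1.75 for *Il18* (adjusted p = 0.288). *Ptgs2* was at 741, 1031 and 1284 CPM in WT and at 2826, 1482 and 1721 CPM in *Irg1-/-* after restimulation. After LPS 24h it was at 81.2, 160 and 286 CPM in WT and at 43.4, 60.6 and 22.2 CPM in *Irg1-/-*.

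Against LPS 3h the difference was −1.65 for *Il18* (adjusted p = 0.455), −0.58 for *Gsdmd* (adjusted p = 0.834) and −2.13 for *Psme1*, a subunit of the proteasome activator (adjusted p = 0.151). *Psme1* was at 518, 1147 and 1438 CPM in WT and at 351, 402 and 389 CPM in *Irg1-/-* after restimulation, and −0.39 and −1.71 within prefixes 1 and 2.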

How the results depend on the processing

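No value of the alternatives reversed a call. *Acod1* stayed between −9.94 and −9.56 and past the threshold throughout, and *F13a1* and *Oasl1* kept their calls in all alternatives. The 14 calls became 106 (33 higher, 73 lower) with DESeq2's Wald test, 133 (56, 77) with no filter on low counts, 9 (2, 7) with a mean of at least 10 counts, 4 (1, 3) with only the compared groups, 6 (1, 5) with library prefix as a term, 9 (2, 7) with TMM factors without the top 20 genes, and 80 (42, 38) in prefixes 1 and 2. Leaving out 1 library gave 4 to 30 calls, 1 to 3 higher and 3 to 27 lower. The cause was not tested. Interferon-stimulated genes that fell numbered 5 with the Wald test, 1 with the mean filter, the compared groups, the prefix term or the changed TMM factors, and 1 to 3 with a library left out. GBP and IRG GTPases that fell, 1 gene, numbered 0 with the same 4 settings, 5 with the Wald test or no filter, and 0 to 3 with a library left out.

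The difference from LPS 24h, 1 gene, became 55 with the Wald test, 170 without a filter, 7 with the prefix term, 0 with DESeq2 size factors, the mean filter, the compared groups or the changed TMM factors, and 0 to 25 with a library left out. The difference from LPS 3h, 0 genes, became 34, 68 and 1 with the first 3 of these, and 0 to 6 with a library left out. The 71 calls after LPS 24h and 1 after LPS 3h became 12 and 3 with the prefix as a term, an alternative chosen after seeing the data.

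Same-numbered libraries had residual correlations of −0.05, 0.07 and 0.19, and differently numbered ones −0.20 to 0.13. So few values cannot show whether the replicate numbers pair the libraries. The replicate block gave 11 calls (2 higher, 9 lower), 2 interferon-stimulated genes, and 0 and 1 genes for the differences from LPS 24h and LPS 3h. With block and prefix together the values were 5 (1, 4), 1, 6 and 2.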

Other observations

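Genes just outside the threshold, chosen after their values were seen, included some outside the interferon-stimulated list and the GBP and IRG GTPases. *Tpm1*, a tropomyosin of actin filaments, was at 268, 466 and 748 CPM in WT and at 151, 114 and 139 CPM in *Irg1-/-* (log2 fold change −1.88, adjusted p = 0.0599, edgeR's quasi-likelihood test). *Tpm4* had −1.68 (adjusted p = 0.132). The mitochondrial transcript *mt-Co1*, a subunit of cytochrome oxidase, was at 7391, 12554 and 18008 CPM in WT and at 4391, 5008 and 5707 CPM in *Irg1-/-* (−1.33, adjusted p = 0.0599). The MHC class I gene *H2-T22* was at 42.4, 85.8 and 125 CPM in WT and at 36.1, 23.8 and 19.4 CPM in *Irg1-/-* (−1.68, adjusted p = 0.0642).

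The metallothionein genes *Mt1* and *Mt2*, which bind zinc, averaged 1008 and 639 CPM in WT and 442 and 211 CPM in *Irg1-/-*. Both were lower without overlap and neither passed (log2 fold change −1.19 and −1.60, adjusted p = 0.168 and 0.132).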
